A study of Homo sapiens with 4 samples.

Results

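FLT3 and 5 related receptor tyrosine kinase genes, FLT1, KIT, CSF1R, PDGFRA and PDGFRB, were examined for H3K27Ac in MOLM13 cells. They are 6 of 20037 protein-coding genes. They were picked by family and position and not by a signal cutoff, though with earlier results of these data known. MOLM13 is a human AML cell line which the study describes as carrying MLL-AF9 and FLT3-ITD, an activating internal duplication in FLT3. One H3K27Ac library came from control cells, for which the labels give no treatment while the protocol names a DMSO arm, and 1 library came from cells exposed to 500 nM of SNDX-50469, an inhibitor of menin, for 16 h. Both are cultures of the same line, so that MLL-AF9 and FLT3-ITD are shared by both conditions. The labels also list 2 input libraries, not used here. Since each condition is 1 library, the differences below carry neither a replicate check nor a p-value. The 95% intervals, by Wilson's method, speak to counting error alone, and peaks next to each other are not independent.

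H3K27Ac is an acetyl mark on histone H3 that is placed at active enhancers and promoters, and menin is a chromatin adaptor that tethers MLL fusion proteins to their target genes. FLT3, KIT, CSF1R, PDGFRA and PDGFRB are the class III receptor tyrosine kinases. Each binds its ligand through immunoglobulin-like domains, dimerises and activates a split kinase domain that feeds the RAS-MAPK, PI3K-AKT and STAT5 pathways. FLT3 acts in early myeloid and lymphoid progenitors, KIT in stem cells and mast cells, and CSF1R in monocytes and macrophages. PDGFRA and PDGFRB act mainly in mesenchymal cells. FLT1, or VEGF receptor 1, is a relative of class III and the neighbour of FLT3 on chromosome 13. PDGFRA and KIT are neighbours on chromosome 4, and CSF1R and PDGFRB on chromosome 5.

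The promoters of FLT3, CSF1R and KIT are shown because H3K27Ac peaks lay over them in both conditions, in control alone and in neither condition, respectively. Each is the 250 bases before the start of transcription in RefSeq on GRCh38.p14, the build of the peak lists, read 5′ to 3′ on the gene's strand. Capitals mark matches, on either strand, to GAGGAA (bound by ETS factors such as PU.1), TGTGGT (bound by RUNX factors) or CCGCCC (a GC box).
FLT3, chr13:28100577-28100826, minus strand: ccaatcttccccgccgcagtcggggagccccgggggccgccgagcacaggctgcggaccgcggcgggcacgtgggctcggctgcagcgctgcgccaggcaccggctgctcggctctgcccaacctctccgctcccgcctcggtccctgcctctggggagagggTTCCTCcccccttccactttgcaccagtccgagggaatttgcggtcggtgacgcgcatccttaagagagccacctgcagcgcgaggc
CSF1R, inner start, chr5:150086555-150086804, minus strand: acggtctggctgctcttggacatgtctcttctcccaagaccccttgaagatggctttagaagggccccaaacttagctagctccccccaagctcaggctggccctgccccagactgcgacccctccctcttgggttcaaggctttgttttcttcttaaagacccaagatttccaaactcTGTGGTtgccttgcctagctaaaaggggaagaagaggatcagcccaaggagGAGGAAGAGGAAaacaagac
KIT, chr4:54657707-54657956, plus strand: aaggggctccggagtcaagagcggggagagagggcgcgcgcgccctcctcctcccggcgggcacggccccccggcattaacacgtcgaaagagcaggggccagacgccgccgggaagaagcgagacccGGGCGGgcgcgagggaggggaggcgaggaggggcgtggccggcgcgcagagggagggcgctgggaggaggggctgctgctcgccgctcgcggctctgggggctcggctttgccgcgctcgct
The FLT3 promoter held 26 CG pairs and the KIT promoter 34, against a median of 11 over 35097 annotated promoters, and the inner CSF1R promoter held 2. The FLT3 match to GAGGAA lay on the opposite strand, 87 bases before the start. The inner CSF1R promoter held TGTGGT 71 bases before the start and GAGGAA at 20 and 14 bases. GAGGAA stood in 23.6% of all promoters of this length, TGTGGT in 11% and CCGCCC in 42.6%. Of the 7 motifs searched on both strands (these 3, the TATA box TATAAA, the MEIS-type motif TGACAG, the C/EBP-type motif TTGCNNAA and the MYB-type motif AACNGTT), FLT3 held GAGGAA alone and KIT held CCGCCC alone. A match is a description of the letters and not a bound site.

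The 2 lists were of unequal extent, which bears on each comparison below. The control list held 245875 peaks over 224 Mb and the SNDX-50469 list 54061 peaks over 29.4 Mb. Of the length covered in control, 9.71% was also covered after treatment. Of all control peaks, 8.24% shared at least 1 bp with a SNDX-50469 peak. The weakest peak had a fold of 2.66 and a −log10 p of 2.68 in control and a fold of 3.46 and a −log10 p of 3.93 after treatment, so that the SNDX-50469 list began at a higher cutoff. Fold here is the enrichment over the library's own background that the authors give for a peak. No peak at a gene therefore means that nothing there passed that list's cutoff, not that the mark was absent. Of 11 myeloid marker genes, 11 had a control peak and 9 a SNDX-50469 peak, where 78% and 52.1% of all protein-coding genes did. Peaks alone did not mark the lineage of the line, since 4 of 4 T cell, 4 of 4 B cell, 3 of 4 erythroid, 4 of 4 endothelial, 2 of 4 fibroblast and 2 of 4 mast cell markers also had a control peak. After treatment these lists had peaks at 0, 3, 2, 2, 0 and 0 genes.

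In control cells, 5 of the 6 receptors had H3K27Ac peaks in the gene or within 5 kb of it, where 78% of all protein-coding genes did. FLT3, CSF1R and PDGFRB were covered over most of this window, FLT1 and KIT over a small part of it, and PDGFRA not at all. After SNDX-50469, 4 of the 6 had a peak, where 52.1% of all genes did. FLT3 then held 73.7% of the length covered over the 6 genes, having held 38.2% in control, with positions shared by 2 windows counted once. At 5 of the 5 receptors with a control peak the covered length was lower with SNDX-50469, against 98.1% of the 15634 genes with a control peak, so that the direction does not set them apart.

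**Figure D1:**
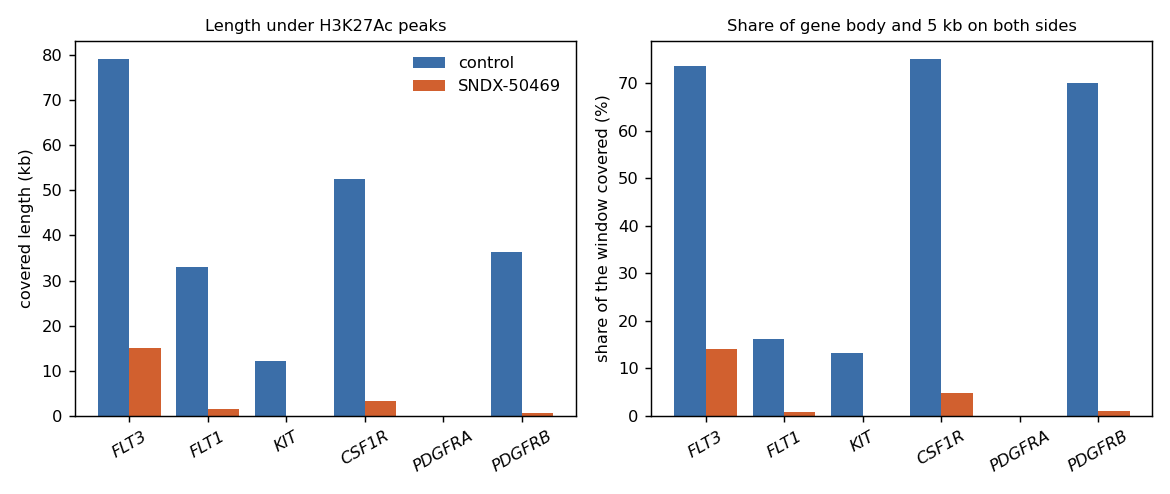
Length under H3K27Ac peaks in kb (left) and as percent of each gene with 5 kb on either side (right) for the 6 receptor genes, with control in blue and SNDX-50469 in orange, 1 library each and therefore no error bars. FLT3, CSF1R and PDGFRB were covered over 73.7%, 75.1% and 70.1% of the window in control, and FLT3 stood highest after treatment with 14.1%.

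FLT3, the receptor of FLT3 ligand, carried the longest covered length of the 6 in both lists as deposited. The gene lies at chr13:28003274-28100576 on the minus strand. In control, 48 peaks covered 79074 bp, and after SNDX-50469, 20 peaks covered 15128 bp. The length covered in both was 18.5% of that in control. Of the 48 control peaks, 13 (27.1%, Wilson 16.6 to 41%) shared at least 1 bp with a SNDX-50469 peak. Of all control peaks 8.24% did, and of those on chromosome 13 7.57%. Control peaks had a median width of 945 bp at FLT3 and 340 bp over the whole list. All 20 SNDX-50469 peaks at FLT3 overlapped a control peak, in a window of which 73.7% was covered in control. Of all SNDX-50469 peaks 43% overlapped no control peak, and of those on chromosome 13 52.7%. The 7 SNDX-50469 peaks at CSF1R and the 1 at PDGFRB also overlapped control peaks, so that full overlap is not particular to FLT3. By control covered length FLT3 ranked 229 among all 20037 genes, and by covered length after treatment it ranked 156. Its kept share stood above that of 76.3% of the 4976 genes with at least 10 kb covered in control, whose median was 8.0%.

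The strongest control peak at FLT3 ran over the start of the gene. It spanned 28092127 to 28110937, a width of 18811 bp with a fold of 9.43, the rank of 402 among the 245875 control peaks. After SNDX-50469, 5 separate peaks lay within it and covered 36.6% of it. The one on the start, 28098492 to 28102009, had a fold of 6.42 and was the only SNDX-50469 peak at the 6 receptors with a −log10 q of at least 5. Each position within 1 kb of the FLT3 start was covered in both lists. The other control peaks of that strength lay further into the gene. They ran from 28029245 to 28030886, 28031216 to 28038421, 28051833 to 28052067 and 28052396 to 28058085, with folds of 5.21, 5.4, 5.69 and 5.2. The widest SNDX-50469 peak of that stretch, 28031270 to 28033895, lay inside the second of these with a fold of 4.41, some 66681 to 69306 bp downstream of the start.

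The SNDX-50469 peaks of FLT3 thus lay in a cluster of 8 from 28087539 to 28102736, around the start, and a group of 11 between 28018009 and 28057475, with 1 peak from 28069981 to 28070534 between them. Within 5 kb of the start 53.3% of the 10001 bp covered in control was kept, and over the rest of the window 13.5% of 69073 bp. The contrast was also present across the 3871 genes with at least 10 kb covered in control and a known start, at 20.9% near starts and 6.71% elsewhere. In bins of 10 kb, from 10 kb before the start to 100 kb after it, the covered length in control stayed between 4846 and 10000 bp. After treatment it was 5621 bp in the first bin of the gene, 0 bp between 20 and 30 kb and 2755 bp between 60 and 70 kb.

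**Figure D2:**
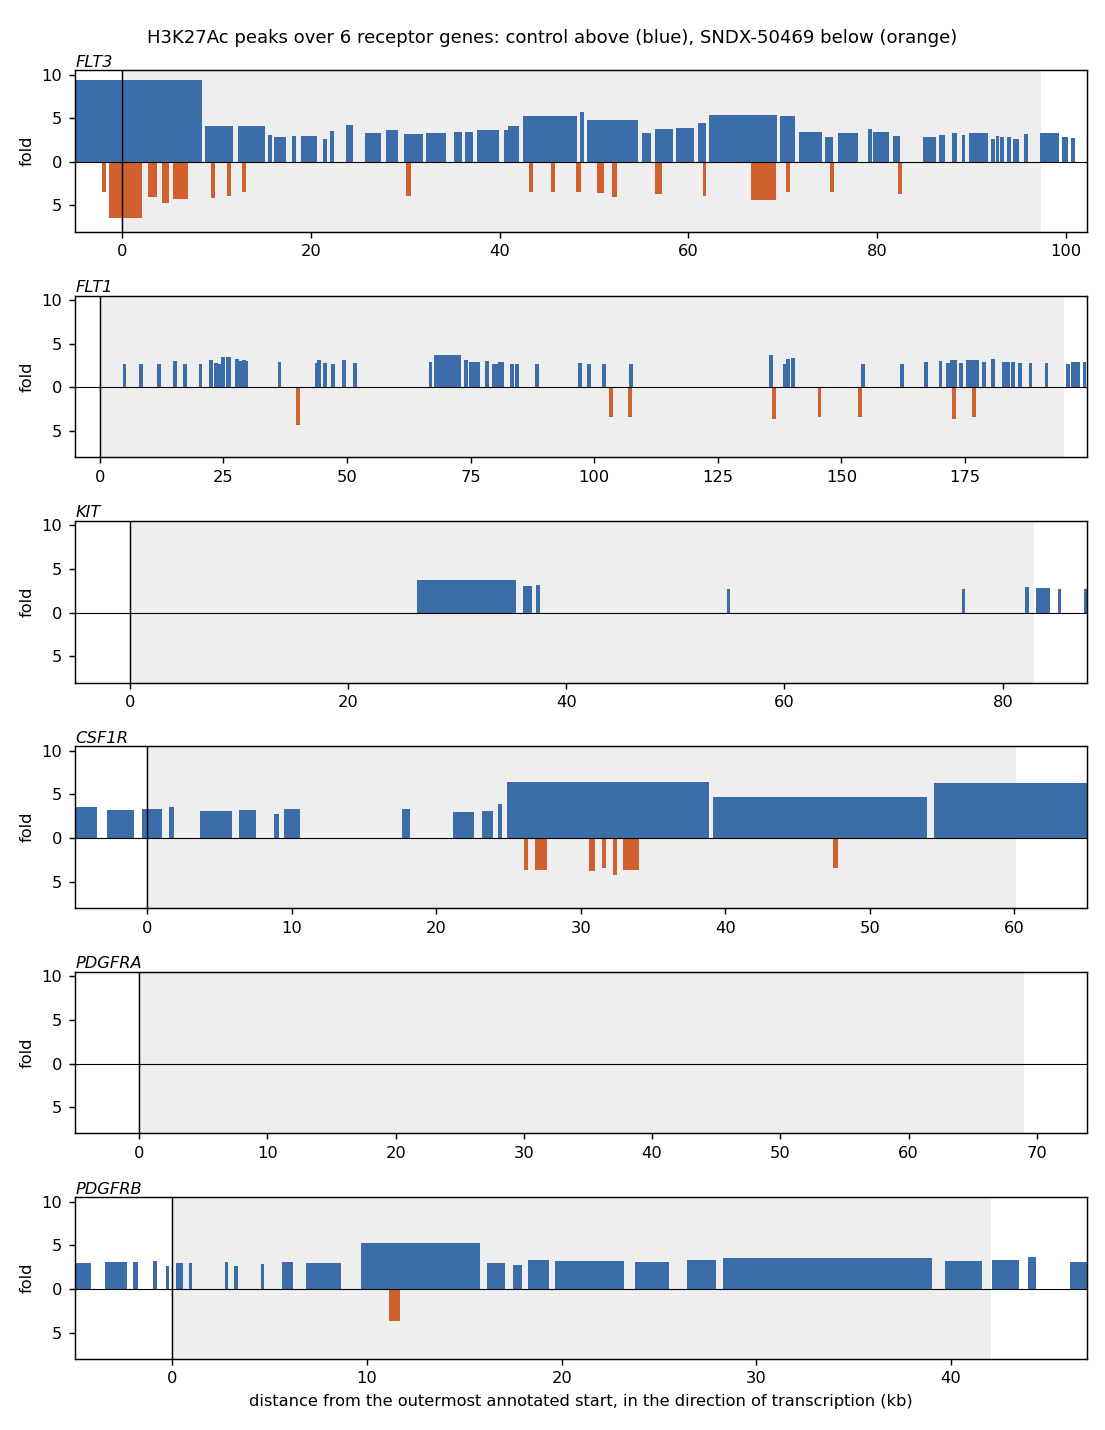
H3K27Ac peaks along each receptor gene, by distance in kb from the outermost annotated start in the direction of transcription (line at 0), with the gene body shaded. The height is the authors' fold for the peak, control upward in blue and SNDX-50469 downward in orange, each against its own library, so that heights are not comparable between colours, and the narrowest peaks are drawn wider than they are. At FLT3 the SNDX-50469 peaks gather around the start and between 43101 and 82567 bp into the gene, and the PDGFRA panel is empty.

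FLT1, which binds VEGFA, VEGFB and placental growth factor, carried many small peaks. The gene lies at chr13:28300346-28495128 on the minus strand, 199769 bp from FLT3. In control 60 peaks covered 33005 bp, or 16.1% of the window, of a median width of 310.5 bp and at most a fold of 3.68. After SNDX-50469, 8 peaks of 101 to 403 bp covered 1475 bp. Of these 8, 5 lay where control had no peak, against 43% of all SNDX-50469 peaks and 52.7% of those on chromosome 13. Kept were 1.04% of the control length and 3 of the 60 control peaks (5%, 1.71 to 13.7%, against 8.24% of all control peaks). The FLT1 start had no peak in either list. The nearest one was 4593 bp away in control and 7321 bp after treatment. With 100 kb on both sides, 5.06% of 140981 bp was kept, in a window that reaches into the neighbouring gene PAN3.

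KIT, the receptor of stem cell factor, had 9 control peaks over 12205 bp and no SNDX-50469 peak within 100 kb. The gene lies at chr4:54657957-54740715 on the plus strand. Most of the control length was a single peak from 54684244 to 54693355, 9112 bp wide with a fold of 3.73, which began 26287 bp downstream of the start. The KIT start itself was in no control peak. No control peak was kept (0 of 9, upper Wilson bound 29.9%), which was also so for 44.8% of all genes with a control peak. Many of those genes have less covered length than KIT, since the median over all genes was 3579 bp in control. KIT belongs to the 4976 genes with at least 10 kb covered in control, whose median kept share was 8.0%. Its kept share stood above that of none of them, and how many of them also kept nothing was not counted.

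CSF1R, the receptor of CSF1 and IL34, was covered over 75.1% of its window in control, the highest share of the 58 receptor tyrosine kinase genes examined. The gene lies at chr5:150053295-150113365 on the minus strand, and its 2 annotated starts are at 150113365 and 150086554. In control 15 peaks covered 52599 bp, and after SNDX-50469 7 peaks covered 3345 bp. The kept share was 6.36% by length and 2 of 15 by control peaks (13.3%, 3.74 to 37.9%, against 8.24% of all control peaks). The strongest control peak, 150074508 to 150088481 with a fold of 6.48, lay over the inner start. Of the 7 SNDX-50469 peaks, 6 lay inside it and together covered 21.2% of it. Their folds were between 3.46 and 4.26. None reached the inner start, the nearest ending 23 bp from it at 150086531. A second strong control peak at the 3′ end of the gene, 150047312 to 150058931 with a fold of 6.26, had no counterpart after treatment. That peak reached past the end of CSF1R into the neighbouring gene HMGXB3. The outer start lay in a control peak with a fold of 3.36 and 26088 bp from the nearest SNDX-50469 peak.

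PDGFRB, the receptor that PDGF-B chains bind on pericytes and fibroblasts, lies at chr5:150113839-150155845 on the minus strand, 473 bp beyond the outer end of CSF1R. In control 24 peaks covered 36437 bp, 70.1% of the window, and after SNDX-50469 1 peak covered 565 bp. That peak, 150144148 to 150144712 with a fold of 3.69, lay inside the strongest control peak, 150140034 to 150146176 with a fold of 5.25. Kept were 1.55% of the control length and 1 of the 24 peaks (4.17%, 0.739 to 20.2%, against 8.24% of all control peaks). The PDGFRB start was in no peak, with a control peak 179 bp from it on either side. Control peaks covered 853 bp within 1 kb of the start and SNDX-50469 peaks 0 bp. The windows of PDGFRB and CSF1R share 9527 bp, in which 5 control peaks and 0 SNDX-50469 peaks lay, so their values are not independent.

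PDGFRA, which binds PDGF-A, PDGF-B and PDGF-C, is found at chr4:54229293-54298245 on the plus strand and had no peak in either list. The nearest control peak was 163843 bp from its outer start. With 100 kb on both sides there was 1 SNDX-50469 peak, 132 bp wide with the list's smallest fold of 3.46. KIT lies 359711 bp away, and no other protein-coding gene lay within 100 kb of either.

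Strong peaks were fewer. Control peaks whose −log10 q reached 5 or more lay at FLT3 (5 peaks), CSF1R (2) and PDGFRB (1), 3 of 6 genes, where 36.8% of all genes had one. After SNDX-50469 such a peak lay at 1 of 6, FLT3, where 5.19% of all genes had one. Of the 8 annotated starts of the 6 genes, 3 were inside a control peak, 1 of FLT3 and 2 of CSF1R, against 41.5% of 22183 starts. After treatment 1 was, that of FLT3, against 18.5%. Only a part of the control peaks reached the cutoff of the SNDX-50469 list, 45451 of 245875 over the whole control list. At or above its −log10 p were 21 of 48 control peaks at FLT3, 4 of 60 at FLT1, 1 of 9 at KIT, 6 of 15 at CSF1R and 3 of 24 at PDGFRB. Among these, 10, 0, 0, 2 and 1 were kept. Of the control peaks below that cutoff, 3 at FLT3, 3 at FLT1 and 0 at KIT, CSF1R and PDGFRB were kept. With control peaks below that −log10 p left out, the kept length was 25.9% at FLT3, 8.04% at CSF1R, 3.27% at PDGFRB and 0% at FLT1 and KIT, with 15.5% over all peaks.

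With the control list trimmed from its weakest peaks to the total length of the SNDX-50469 list, the difference at FLT3 turned around. Left were 3632 control peaks with a −log10 p of at least 10.03, against 54061 SNDX-50469 peaks with a smallest value of 3.93. The control cutoff was then the higher one, so a turn at this setting does not show a gain after treatment. Over all peaks 38.9% of the control length was kept at this setting. The control length of FLT3 was then 13450 bp, below the 15128 bp of the SNDX-50469 library, with 51.3% kept. CSF1R, with 13974 bp, then stood before FLT3 in control and was still lower after treatment, at 3345 bp with 21.2% kept, and FLT1, KIT and PDGFRB had no control peak left. How much of the lower covered length came from the number of reads or the background of the library, which was 0.735 after treatment and 0.877 in control, was not tested.

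**Figure D3:**
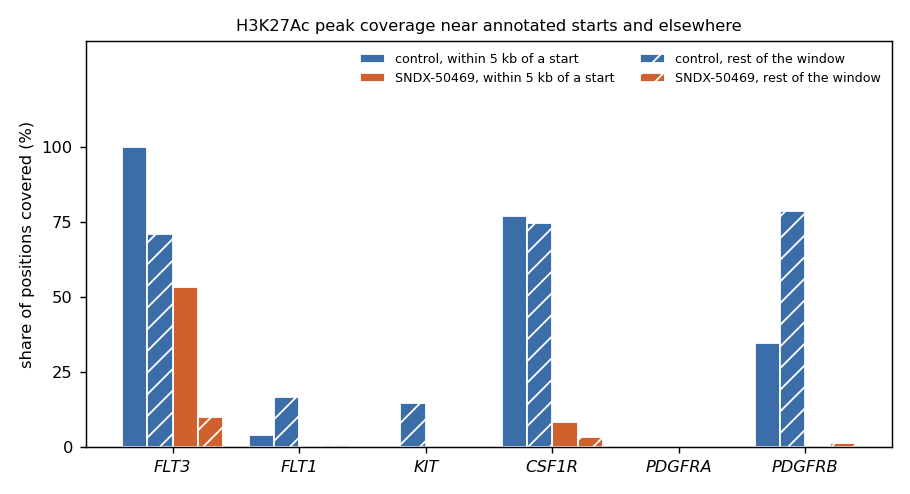
Share of positions under H3K27Ac peaks within 5 kb of an annotated start (plain bars) and over the rest of the window (hatched bars), control in blue and SNDX-50469 in orange, 1 library each. At FLT3, 100% near the start was covered in control and 53.3% after treatment, while CSF1R went from 76.8% to 8.28% and PDGFRB from 34.6% to 0%.

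Peaks were next joined across gaps up to the usual distance of the ROSE method and ranked by the sum of fold times length, as is done to find super enhancers, though here from peaks and not from reads. In control FLT3 lay in a region of 367757 bp with 141 peaks, from 27973394 to 28341150, which held PAN3 entirely and reached into FLT1. It ranked 88 of 24668 regions, above the point at which the ranked curve has slope 1. After SNDX-50469 the first region of FLT3 was 25176 bp, from 28087539 to 28112714, and ranked 498 of 18541, below that point. Joined across 3 kb, the control region was 292982 bp with a rank of 36, and the SNDX-50469 region of 15198 bp ranked 357 of 32489, above the slope point. CSF1R and PDGFRB shared a control region of 299925 bp, which ranked 276 and was above the slope point. After treatment the first regions of CSF1R and PDGFRB were 7962 and 565 bp, both below it.

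Of the genes around the receptors, PAN3, which encodes a subunit of a deadenylase, was the most covered. It lies at chr13:28138193-28295335 and had 125973 bp of control peaks, of which 9.69% was kept, and 12489 bp of SNDX-50469 peaks. Its start lay in a peak of both lists. The gut homeobox genes CDX2 and PDX1 on the other side of FLT3 had 407 and 0 bp in control and 0 bp after treatment, and URAD had 2667 and 0 bp. Around CSF1R and PDGFRB, HMGXB3 went from 28688 to 1733 bp and TIGD6 from 4927 to 1733 bp, the same 1733 bp counted for both. SLC26A2 had 4357 and 233 bp, CDX1 2149 and 0 bp, SLC6A7 760 and 0 bp and CAMK2A 4383 and 362 bp.

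Among 58 receptor tyrosine kinase genes, FLT3 ranked 2 by control covered length and 1 by covered length after SNDX-50469. CSF1R ranked 3 and 5, PDGFRB 6 and 17, FLT1 7 and 10 and KIT 17 in control, all without regard to gene length. Of the 52 other receptors, 45 had a control peak and 22 a SNDX-50469 peak (86.5% and 42.3%, against 78% and 52.1% of all genes), and the median covered length was 2737 and 0 bp, against 3579 and 111 bp over all genes. INSR, the insulin receptor, led in control with 94087 bp, of which 13.5% was kept, and had 13458 bp after treatment. ROS1 had 49561 and 2521 bp, RET 31941 and 353 bp and LMTK2 29839 and 970 bp. AXL, the receptor of GAS6, had 39325 and 7639 bp and was the only one of the 52 with a SNDX-50469 peak at a −log10 q of at least 5. ERBB4, a far longer gene, had 5347 bp after treatment and ERBB3 2691 bp. The VEGF receptors KDR and FLT4 had 325 and 210 bp in control and none after treatment.

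**Figure D4:**
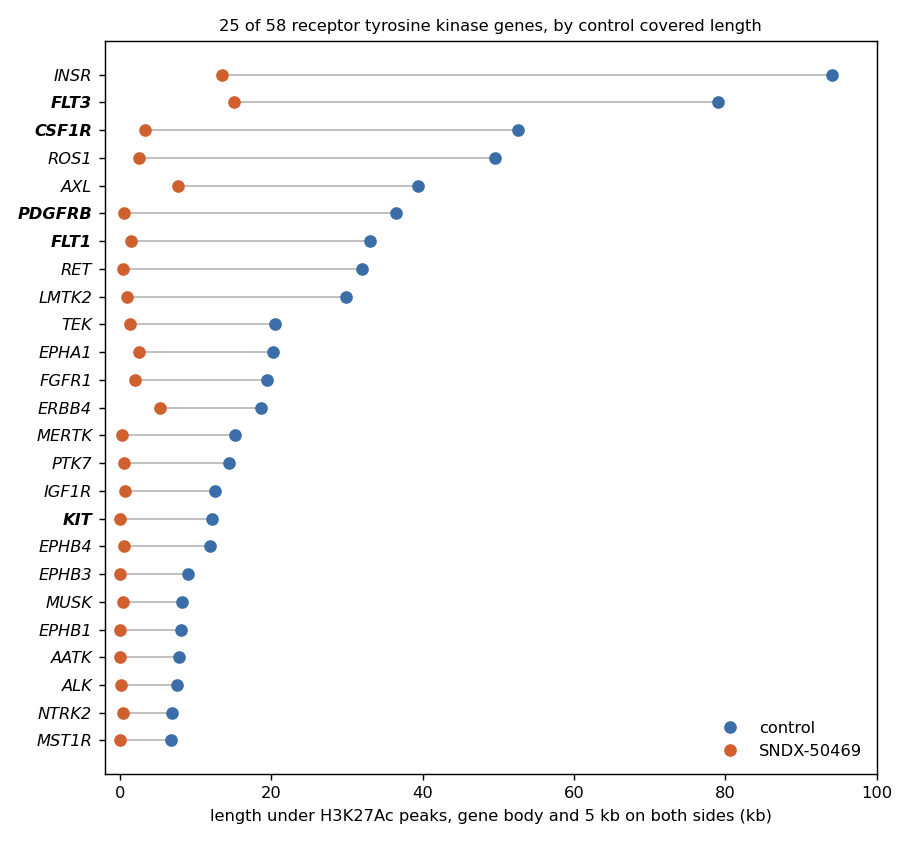
Length under H3K27Ac peaks in each gene and within 5 kb of it, in kb, for the 25 receptor tyrosine kinase genes with the longest control covered length of 58, with the 6 receptors' names in bold where present (PDGFRA, at 0 bp, is not among them). Blue points are control and orange points SNDX-50469, joined by a line per gene, and INSR and FLT3 lie to the right of the rest in both conditions.

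All 11 ligand genes of the 6 receptors had a control peak and 6 had a SNDX-50469 peak, against 78% and 52.1% of all genes, so that the latter count is near the background. FLT3LG, which encodes FLT3 ligand, went from 8054 to 4085 bp, so that 50.7% was kept. The ligands of KIT and CSF1R had little coverage, with 357 bp at KITLG, 814 bp at CSF1 and 891 bp at IL34 in control and 0 bp at each after treatment. Of the PDGF genes, PDGFA had 8480 and 0 bp, PDGFB 1222 and 0 bp, PDGFC 17780 and 377 bp and PDGFD 6362 and 508 bp. VEGFA was the most covered ligand in control, with 20757 and 3776 bp, while VEGFB had 11135 and 854 bp and PGF, which encodes placental growth factor, 7883 and 1288 bp.

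Of 40 genes that carry the signal inside the cell, all 40 had a control peak and 29 a SNDX-50469 peak, against 78% and 52.1% of all genes. The median covered length was 16270.5 bp in control and 1696 bp after treatment, against 3579 and 111 bp over all genes. The median kept share was 8.18%, near the 8.0% of all genes with at least 10 kb covered in control, while it was 2.37% over all genes with a control peak, most of which have less covered length. The longest were GAB2, an adaptor of PI3K, with 159390 and 18849 bp, the SRC-family kinase LYN with 120414 and 35625 bp, and INPP5D, the phosphatase SHIP1, with 120379 and 14314 bp. They were followed by FOXO3, a transcription factor that AKT restrains, with 77045 and 9706 bp, and SLA, an adaptor that dampens receptor signalling, with 75151 and 30073 bp. RPS6KA1, a kinase downstream of ERK, had 46303 and 10755 bp. STAT5A and STAT5B, which FLT3-ITD activates, had 8022 and 38789 bp in control and 337 and 635 bp after treatment. PIM1, a STAT5 target, had 12863 and 1800 bp, and SOCS2, another, had 25332 and 0 bp.

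The 5 protein-coding genes whose covered lengths in control, after treatment and in both lists were nearest to those of FLT3 were FKBP5, ANKRD33B, AMZ1, MTMR7 and VMP1, at distances of 0.0443 to 0.0639 on the log10 scale of length over these 3 values. They had 69154 to 88708 bp in control and 14425 to 17031 bp after treatment.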

How the data were processed

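The report rests on 2 deposited lists of broad H3K27Ac peaks, 1 per library. The submitters' processing notes name Trim Galore 0.6.5, Bowtie2 2.3.4.2, Picard 2.9.0, MACS2 2.1.2 and GRCh38, and the supplementary methods name TopHat2, hg38, diffReps and ROSE. Options and the use of input in calling are not given in the sources used here. For each peak the authors give a fold ratio over background, a deposited −log10 p and −log10 q, and a deposited score of 10 times the −log10 q as a whole number, which was not used. Values were not scaled between libraries, so positions were compared. Read depth is unknown, and the background was solved from the smallest fold and −log10 p of each list. Genes, starts and promoters were those of RefSeq GRCh38.p14. Exon annotation of this build was not used here. A control peak was kept if it shared 1 bp with the other list, and a kept share is the jointly covered length in percent of the control length.

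The genes named were the 6 receptors, the protein-coding genes within 100 kb, the ligands, the 5 other receptors and 5 signalling genes longest in each list and the 5 genes nearest to FLT3, and peaks named were the strongest of each list and those with a −log10 q of at least 5. KDR, FLT4, STAT5A, STAT5B, PIM1, SOCS2 and other peaks were named after their values were seen. The members and lists were chosen with earlier results of these data known. Interval functions were tested on simulated data. Python 3.11.15, numpy 2.4.6, pandas 2.3.3, scipy 1.17.1 and matplotlib 3.10.9 were used.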

Additional observations from a re-analysis of the deposited data

How the results depend on the processing

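Kept shares of covered length were recomputed with the gene body alone, with 50 and 100 kb on both sides, with 3 peak thresholds, with peaks of at least 500 bp and with the control list trimmed to equal length, and were counted as moved outside a Wilson interval that takes the share of length as a proportion of the number of control peaks. For FLT3, at 18.5%, this interval is wide, from 10 to 31.7%. FLT3 left it under the trimmed list alone, with 51.3%, where 38.9% was kept over all peaks. It had 25.9% with 1 −log10 p cutoff for both lists, 13.4% with 100 kb, 15.4% with a −log10 q of at least 2, 15.6% with peaks of at least 500 bp and 3518 of 28223 bp with a −log10 q of at least 5. FLT1 moved to 0% with a −log10 q of at least 2, with 1 −log10 p cutoff for both lists and with peaks of at least 500 bp. CSF1R fell to 0% and 0.396% with a −log10 q of at least 5 and 2, and PDGFRB to 0% with both. Higher shares were 21.2% at CSF1R with the trimmed list, and 6.27% at FLT1 and 5.54% at PDGFRB with 50 kb on both sides, where the wider window takes in other genes. KIT stayed at 0%. With 50% of a control peak's length to be covered, the kept peaks moved to 0% at FLT3, CSF1R and PDGFRB and 1.67% at FLT1. The number of the 6 receptors with a control peak was 3 with a −log10 q of at least 5 and 2 with the trimmed list, and that with a SNDX-50469 peak was 1 with a −log10 q of at least 5. For the gene lists, that threshold and the common −log10 p cutoff were both chosen after the data were seen. With them, 9 and 25 of the 52 other receptors and 4 and 7 of the 11 ligands had a control peak. So did 28 and 40 of the 40 signalling genes. Of all genes 36.8% had one with a −log10 q of at least 5, and their share at the common −log10 p cutoff was not computed. The control stitched region of FLT3 stayed within 1.5 times of its length at 3 kb. The first SNDX-50469 region of FLT3 did not, going from 25176 to 15198 bp and from below the slope point to above it. No kept share could be given where no control peak remained, which is PDGFRA throughout, FLT1 and KIT with a −log10 q of at least 5, and FLT1, KIT and PDGFRB with the trimmed list. Read depth is unknown and limits what the absence of a peak shows. No paired analysis was possible because only 1 library stands on each side.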
